A study of Mus musculus with 2 samples.

Results

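The genes described here encode the prolactin, growth hormone and leptin receptors and proteins that act downstream of them, measured in adrenal gland tissue. They are the receptors Prlr, Ghr and Lepr, the kinase Jak2, the transcription factors Stat5a and Stat5b, and the feedback inhibitors Cish, Socs1, Socs2 and Socs3. The 10 genes were taken by symbol, not by level, from 55536 genes measured, and all 10 were found. The study sequenced total RNA from whole adrenal glands of male B6CASTF1/J mice, an F1 cross, at 36 days of age. No treatment is labelled. Input to each library was 300 ng of RNA, depleted of ribosomal RNA, and ERCC spike-in RNA was added. The 2 libraries, replicates 1 and 2, form 1 group, so the data give levels and their spread and no contrast between conditions. The labels conflict on whether the libraries came from different animals, so the spread between them may be technical.

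All 3 receptors belong to the class I cytokine receptor family. They have no kinase of their own: hormone binding activates JAK2 on the receptor tail, JAK2 phosphorylates STAT proteins, and these enter the nucleus and turn on target genes. Among those targets are SOCS and CISH, which bind the receptor or kinase and dampen the signal. Each receptor gene also makes shorter forms that lack most of the intracellular tail or, for the mouse growth hormone receptor, a secreted binding protein. Prolactin and growth hormone are made mainly in the pituitary and leptin in fat, and the adrenal gland receives them from the blood.

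The libraries held 35813366 and 30628771 expected counts, which are read counts apportioned among genes, in replicates 1 and 2. Levels are in TPM, which divides counts by transcript length, so genes can be set side by side. Nuclear protein-coding genes took 31.0% of the TPM in replicate 1 and 23.2% in replicate 2, so a protein-coding gene at an even share of coding RNA has a lower deposited TPM in replicate 2. All 7 cortex markers and all 6 medulla markers were at 1 TPM or more in both libraries. That level does not single out the adrenal gland, since all 9 adipocyte and all 5 endothelial markers also reached it. The cortex markers summed to 14718 and 8187 TPM in replicates 1 and 2, and the medulla markers to 1433 and 1675 TPM. Pancreas markers were high in replicate 2, with 7 acinar and islet genes summing to 7325 TPM against 0.24 TPM in replicate 1, and 7 liver markers summed to 198 TPM against 89.4. Most of the liver sum in replicate 1 was Cyp2e1, at 75.65 TPM there and 82.04 in replicate 2. The other 6 liver markers differed more, as did Alb at 7.24 and 51.4 TPM in replicates 1 and 2. The 9 adipocyte markers summed to 2145 and 1998 TPM in replicates 1 and 2. With TPM rescaled to sum over nuclear protein-coding genes, the sums were 6908 and 8599, so the direction depends on the scale. Among them, Ucp1 was at 156 and 302 deposited TPM. In such bulk tissue, fewer cells of a type and less RNA per cell cannot be told apart.

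On mm10, Ghr (chr15:3317760-3583492, minus strand) and Prlr (chr15:10177238-10349180, plus strand) lie on the same chromosome and Lepr at chr4:101717404-101815352. Jak2 lies at chr19:29251828-29313080, Stat5b at chr11:100780731-100850724 and Stat5a at chr11:100859351-100885169. Cish lies at chr9:107296026-107302784, Socs1 at chr16:10782240-10785536, Socs2 at chr10:95385362-95417180 and Socs3 at chr11:117966079-117970047. Antisense and pseudogene neighbours that overlap Cish had at most 4 counts, and Gm21973, which overlaps Prlr, had 0.

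The growth hormone receptor had the highest level of the 10 genes, followed by the prolactin receptor, and Socs1 had the lowest. Ghr was at 51.8 and 31.2 TPM in replicates 1 and 2 (mean 41.5 ± 14.6, SD, n = 2). Prlr was at 29.9 and 15.4 TPM (22.6 ± 10.3). Lepr was lower, at 4.18 and 2.38 TPM (3.28 ± 1.27). Each receptor was lower in replicate 2 in deposited TPM, but the order Ghr, Prlr, Lepr held in both libraries.

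Within a library, where scaling between libraries plays no part, Ghr was 1.73 and 2.03 times Prlr and 12.4 and 13.1 times Lepr. Among the 31 class I cytokine receptors and related chains listed, Ghr ranked 2 and Prlr ranked 3 by mean TPM. The receptor above them was Il6st, the shared signalling chain of the interleukin-6 family, at 106 and 65.5 TPM, and the next below by mean was Il11ra1, the interleukin-11 receptor, at 23.9 and 17.4 TPM. Il11ra1 was below Prlr in replicate 1 and above it in replicate 2, so the order of that pair differs between the libraries. Lepr ranked 11, beside Osmr, the oncostatin M receptor, at 4.22 and 2.26 TPM. Ghr ranked 1167 and Prlr 2389 among 22015 nuclear protein-coding genes.

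**Figure D1:**
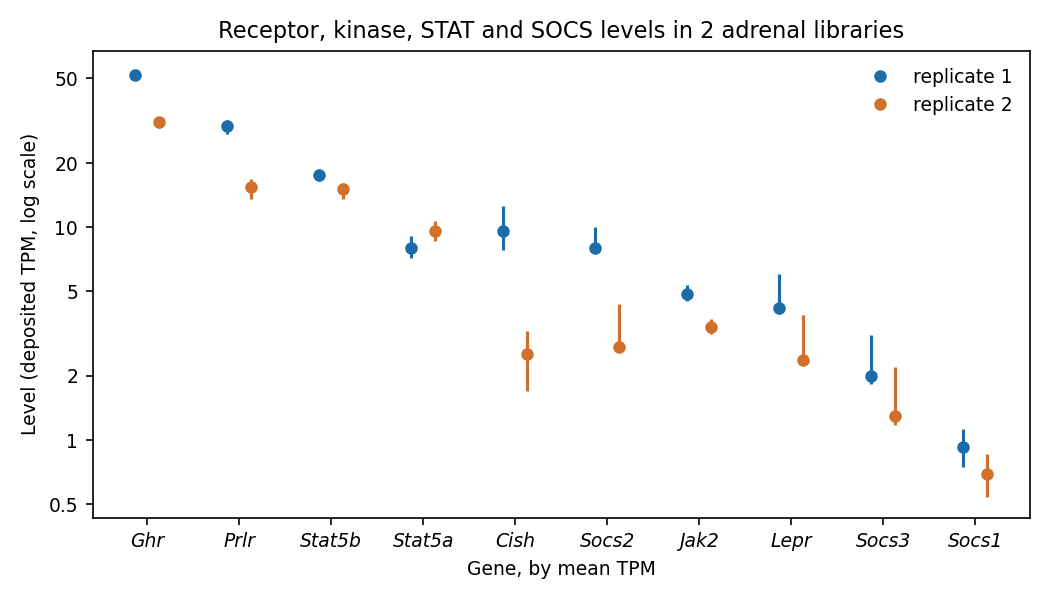
Deposited TPM (log axis) of the 10 genes in replicate 1 (blue) and replicate 2 (orange), ordered by mean, with the deposited TPM interval of each library as a vertical line; a point need not be central in its interval, and for Lepr in replicate 2 it lies just under it. Ghr is at 51.8 and 31.2 TPM and Socs1 at 0.93 and 0.69 TPM. On this scale Stat5a is higher in replicate 2 while the other 9 genes are higher in replicate 1. With TPM rescaled to sum over nuclear protein-coding genes, Stat5b too is higher in replicate 2, at 56.7 and 64.8.

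The forms of the receptors differ after a shared start of the coding sequence. The sequences below show that branch point for each protein-coding form with a complete reading frame, read from the GENCODE M21 transcripts on mm10. Lower case marks the last 15 coding bases that the forms of a gene share, and capitals mark what follows in that form, up to its stop codon for the short forms and for 60 bases for the long ones.

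The prolactin receptor forms share 280 codons. The long form, Prlr-202, has 608 codons and its capitals lie at chr15:10328281-10328340 on the plus strand. The short forms Prlr-204, Prlr-212 and Prlr-205, of 292, 303 and 310 codons, use exons further downstream, with their own ends at chr15:10341774-10341812, chr15:10345658-10345729 and chr15:10346410-10346502.
Prlr-202: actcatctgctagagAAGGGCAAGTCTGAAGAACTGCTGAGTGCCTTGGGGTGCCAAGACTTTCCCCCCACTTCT
Prlr-204: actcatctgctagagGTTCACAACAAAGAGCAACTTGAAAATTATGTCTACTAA
Prlr-212: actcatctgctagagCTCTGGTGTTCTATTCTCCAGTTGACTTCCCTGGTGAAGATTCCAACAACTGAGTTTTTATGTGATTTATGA
Prlr-205: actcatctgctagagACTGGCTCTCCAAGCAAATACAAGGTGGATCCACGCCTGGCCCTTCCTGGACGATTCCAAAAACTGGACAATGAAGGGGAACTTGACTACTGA

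The growth hormone receptor forms share 811 coding bases. The full-length receptor, Ghr-201 and Ghr-208, has 650 codons, and its capitals lie at chr15:3325929-3325988 on the minus strand. The short form, Ghr-203 and Ghr-202, has 297 codons, and its own 83 bases lie at chr15:3327604-3327686. It encodes the secreted growth hormone binding protein, with a hydrophilic end in place of the membrane span.
Ghr-201: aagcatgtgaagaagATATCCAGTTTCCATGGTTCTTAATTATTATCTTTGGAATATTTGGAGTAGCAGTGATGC
Ghr-203: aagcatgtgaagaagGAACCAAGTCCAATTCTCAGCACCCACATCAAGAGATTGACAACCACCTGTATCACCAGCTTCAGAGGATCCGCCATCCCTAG

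The leptin receptor forms share 889 codons, which include the membrane span. The long signalling form, Lepr-201, has 1162 codons, and its capitals lie at chr4:101814448-101814507 on the plus strand. The short forms Lepr-202 and Lepr-203, of 892 and 894 codons, end at chr4:101792071-101792082 and chr4:101811348-101811365.
Lepr-201: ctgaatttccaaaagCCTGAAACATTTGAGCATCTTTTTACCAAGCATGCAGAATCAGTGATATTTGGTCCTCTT
Lepr-202: ctgaatttccaaaagGTCACTGTTTAA
Lepr-203: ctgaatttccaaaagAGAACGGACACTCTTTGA

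The 3 receptors differed in which form led. Prlr was mostly long, Ghr had more of its transcripts in the binding protein form than in the full-length receptor, and Lepr was mostly short. As a share of the TPM in complete long and short forms, the long form held 89.0% and 93.4% for Prlr (91.2 ± 3.16, SD, n = 2), 34.8% and 31.4% for Ghr (33.1 ± 2.38), and 13.5% and 2.10% for Lepr (7.79 ± 8.04). The ranges of the 3 genes over the libraries did not overlap. These are shares within a gene and a library, and no test was made.

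Long Prlr-202 was at 13.6 and 6.97 TPM. The 3 short forms summed to 1.69 and 0.49 TPM, and Prlr-205 was the highest of them at 0.88 and 0.42 TPM. A further 37.0% and 34.3% of Prlr TPM lay in transcripts with incomplete reading frames, mainly Prlr-203 at 10.4 and 5.07 TPM. Prlr-203 is 564 bases long and Prlr-202 is 9900, so Prlr-203 took only 171 and 91.6 expected counts against 4718 and 2653. By counts, the incomplete forms held 3.39% and 3.10% of the gene and the long form 87.2% and 85.7%. Transcripts that are not protein coding held 11.8% and 17.2% of Prlr TPM, led by the retained-intron transcript Prlr-201 at 3.06 and 1.89 TPM.

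The growth hormone binding protein form Ghr-203 was at 29.8 and 18.4 TPM, and its deposited intervals, 26.8 to 31.2 and 16.1 to 19.5 TPM, lay above those of full-length Ghr-201, 14.8 to 16.5 and 7.36 to 8.63 TPM, in each library. Summed over both transcripts of each kind, the binding protein form was at 30.4 and 18.8 TPM and the full-length receptor at 16.2 and 8.60 TPM. The order depends on length: Ghr-203 is 1171 bases long and Ghr-201 is 4175, and by expected counts the full-length receptor led, with 2334 and 1341 against 1153 and 783. Its share was thus 65.0% ± 2.69 of counts (SD, n = 2) against 33.1% of TPM.

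For Lepr, the short form Lepr-203 was at 2.89 and 2.08 TPM and the long form Lepr-201 at 0.45 and 0.05 TPM. The long form rested on 64.7 and 8.07 expected counts, and its deposited intervals were 0.219 to 0.673 and 0.00212 to 0.210 TPM. In the second transcript file, made from the same libraries by another quantification, the long form had 54.0 and 30.3 estimated counts and 9.72% and 6.80% of long and short TPM. Both files put short forms far above the long form in both libraries, while the drop in replicate 2 was much smaller in the second file. The second file gave long shares of 93.3% and 95.2% for Prlr and 36.1% and 33.1% for Ghr.

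**Figure D2:**
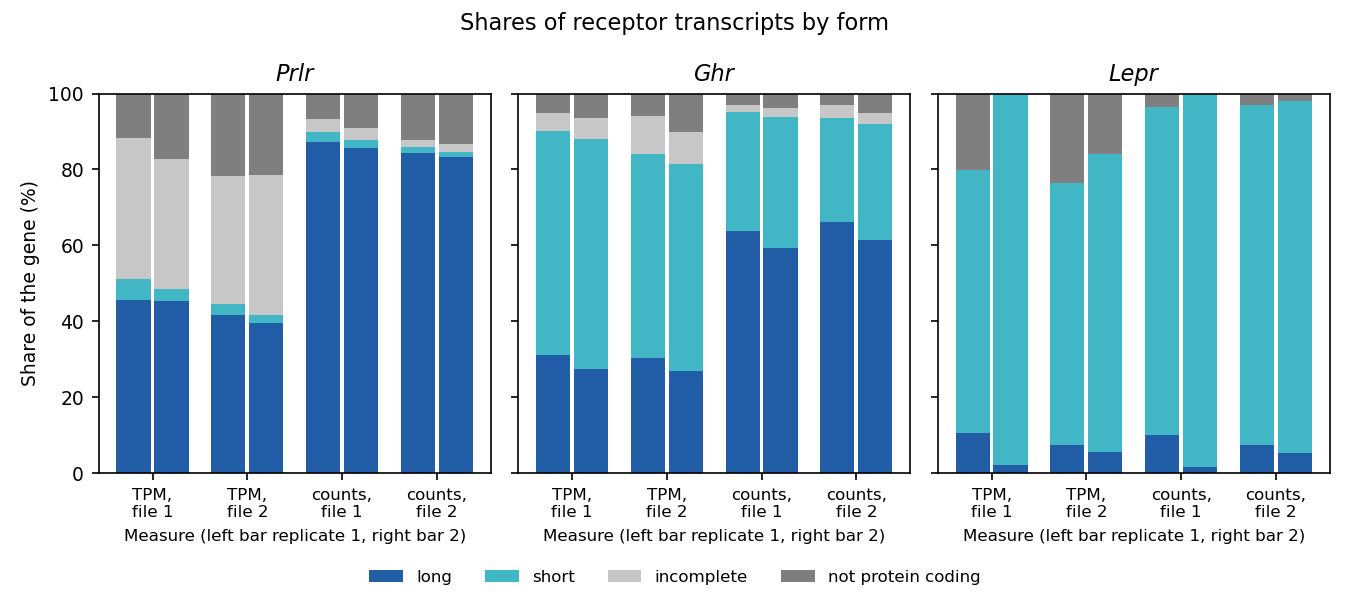
Share of each receptor gene (percent, stacked bars) in long, short, incomplete and non-coding transcripts, as TPM or counts in the first and second transcript files, with replicate 1 on the left of each pair and replicate 2 on the right. Prlr is mostly long by counts (87.2% and 85.7% in the first file), Ghr is mostly short by TPM and mostly long by counts, and Lepr is mostly short on every measure.

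Below the receptors, Jak2 was far less abundant than the receptors it serves, apart from Lepr. Jak2, the kinase bound to all 3 receptors, was at 4.86 and 3.39 TPM (4.13 ± 1.04, SD, n = 2). Ghr was 10.7 and 9.19 times Jak2 within a library. Stat5b, the STAT5 form best known for growth hormone action in liver, was at 17.6 and 15.1 TPM (16.3 ± 1.80). Stat5a, best known for prolactin action in the mammary gland, was at 7.94 and 9.54 TPM (8.74 ± 1.13). Stat5b was 2.22 and 1.58 times Stat5a within a library, and 2.17 and 1.82 times in the second file. The ranges of Stat5a and Stat5b did not overlap.

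Stat5a and Stat5b are near-identical neighbours, with 8626 bases between them on chromosome 11, and reads that match both were split by the authors' quantification. The expected counts show the split: 833.41 and 999.03 for Stat5a and 2963.59 and 2326.97 for Stat5b are fractional, but their sums are whole, 3797 and 3326. The division between both genes, and the ratio between libraries of each, is uncertain to that extent. Stat5a also overlaps the end of Stat3 on the other strand by 72 bases.

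Of the 4 inhibitors, Cish and Socs2 had a wide spread between the libraries, and Socs1 and Socs3 had lower means in the gene table. Cish, which blocks STAT5 docking, was at 9.56 and 2.54 TPM (6.05 ± 4.96, SD, n = 2). Socs2, the main brake on growth hormone action in body growth, was at 8.01 and 2.74 TPM (5.38 ± 3.73). Both were higher in replicate 1, and their ranges overlapped. Socs3, the inhibitor that acts on the leptin receptor, was at 2.00 and 1.29 TPM (1.65 ± 0.50). In the second file Socs3 was higher, at 6.96 and 5.04 TPM, and in replicate 2 it was above Cish, at 3.32 TPM there. Socs1, an inhibitor of JAK kinases best known in interferon signalling, was at 0.93 and 0.69 TPM (0.81 ± 0.17), from 91 and 73 expected counts.

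By mean TPM the order was Ghr, Prlr, Stat5b, Stat5a, Cish, Socs2, Jak2, Lepr, Socs3, Socs1. Neighbours whose ranges over the libraries did not overlap were Ghr and Prlr, Stat5b and Stat5a, Lepr and Socs3, and Socs3 and Socs1. Ranges overlapped for Prlr and Stat5b, Stat5a and Cish, Cish and Socs2, Socs2 and Jak2, and Jak2 and Lepr. With TPM rescaled to sum over nuclear protein-coding genes, Prlr, at 96.3 and 66.2, no longer overlapped Stat5b, at 56.7 and 64.8, and Jak2, at 15.7 and 14.6, no longer overlapped Lepr, at 13.5 and 10.2. The second transcript file, whose TPM scale differs, gave another order below Stat5a. Its means were 87.0 TPM for Ghr, 44.6 for Prlr, 30.2 for Stat5b, 15.3 for Stat5a, 10.7 for Socs2, 8.59 for Jak2, 7.45 for Cish, 7.26 for Lepr, 6.00 for Socs3 and 1.39 for Socs1. Cish was 0.801 and 0.472 times Socs2 within a library there, against 1.19 and 0.927 times in the gene table.

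Between the libraries, Cish and Socs2 were the members that passed the test, both higher in replicate 1. Rounded counts of the libraries were set against each other in a two-sided exact binomial test, after TMM scaling, which sets the bulk of genes to an even ratio. A gene was called with a Benjamini-Hochberg adjusted p under 0.05 over 14780 genes and a ratio of at least 2-fold. It covers counting error only, and it compares these 2 libraries, not conditions. Over all genes it called 6.87%, of which most were higher in replicate 2 (5.13% of genes tested) and fewer higher in replicate 1 (1.74%). Of the 10 members, 2 were called higher in replicate 1 and 0 higher in replicate 2.

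Cish was 2.84-fold higher in replicate 1 (exact 95% limits 2.42 to 3.35, adjusted p 2.19e-42 by the exact binomial test), from 674 and 194 expected counts. Socs2 was 2.47-fold higher (2.08 to 2.95, adjusted p 1.05e-26 by the same exact test), from 522 and 173 expected counts. Their deposited TPM intervals did not overlap between the libraries: 7.83 to 12.6 against 1.70 to 3.26 for Cish, and 7.66 to 9.995 against 2.70 to 4.36 for Socs2. That does not set these genes apart, because deposited TPM is not scaled between the libraries. The intervals of Prlr, Ghr, Lepr, Jak2 and Stat5b did not overlap either, with Jak2 at 4.48 to 5.32 against 3.15 to 3.71. With a biological coefficient of variation of 0.2 assumed in edgeR's exact test, Cish was called (adjusted p 0.0227) and Socs2 was not (adjusted p 0.0864).

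Prlr, Ghr and Stat5a had a small adjusted p but ratios under 2-fold. Prlr was 1.43-fold higher in replicate 1 (1.37 to 1.5, exact 95% limits) and Ghr 1.33-fold (1.26 to 1.40). Beside them, the 7 cortex markers had a median log2 ratio of replicate 2 to replicate 1 of -0.37, against -0.52 for Prlr and -0.41 for Ghr, and the 6 medulla markers one of 0.46; the part of tissue makeup in these ratios was not tested. Stat5a was the 1 member with a log2 ratio above 0, at 1.46-fold higher in replicate 2 (1.33 to 1.61), subject to the shared reads. The limits included a ratio of 1 for Lepr (0.973 to 1.24, as replicate 1 over 2), Jak2 (0.923 to 1.14), Stat5b (0.987 to 1.10), Socs1 (0.742 to 1.41) and Socs3 (0.909 to 1.46). The median log2 ratio of the 10 genes was -0.17, against 0.01 for all genes tested.

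**Figure D3:**
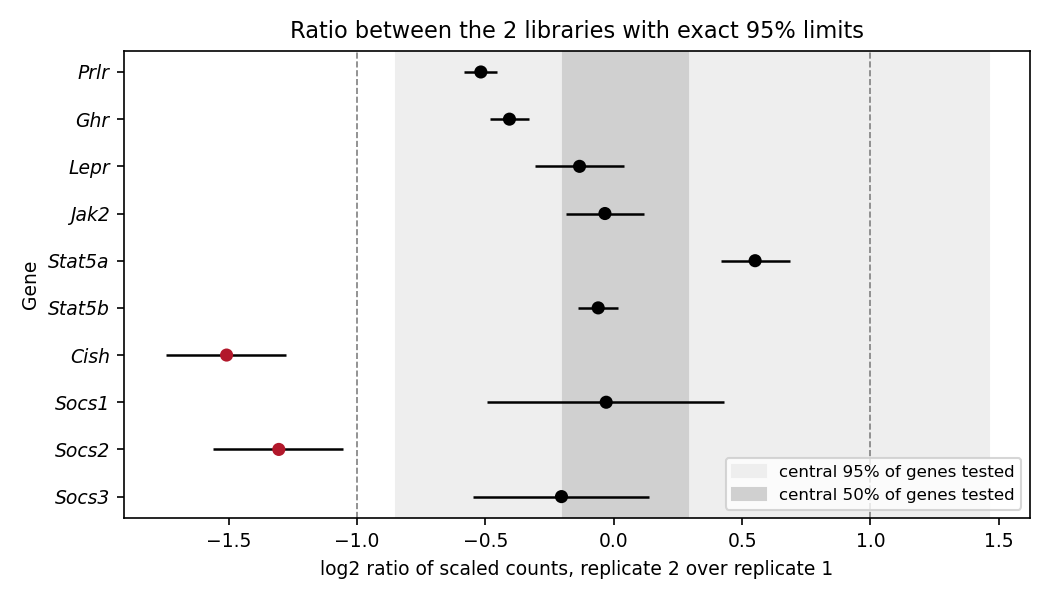
log2 ratio of TMM-scaled counts, replicate 2 over replicate 1, of the 10 genes with exact 95% limits (horizontal lines), over grey bands that hold the central 50% and 95% of the 14780 genes tested; dashed lines mark 2-fold. Cish (-1.51) and Socs2 (-1.30), in red, lie beyond the band and the 2-fold line, and Stat5a (0.55) lies to the right of 0.

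The scaling matters for these ratios. Spike-ins took 0.843% of counts in replicate 1 and 1.5% in replicate 2, and scaling to them moved the median log2 ratio of all genes to -0.88. On that scale 35.7% of all genes were called higher in replicate 1, and so were 6 members, Prlr, Ghr, Lepr, Cish, Socs2 and Socs3. This scaling shifts every gene by the same amount, so the order of the genes cannot change. The shift took Stat5a to a log2 ratio of -0.34, Cish to -2.40 and Socs2 to -2.20. Under a 1.5-fold threshold 5.14% of all genes were called higher in replicate 1, and the members called were again Cish and Socs2.

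By counts, the Cish difference lay in its protein-coding transcripts, but by TPM the files disagreed on this. In replicates 1 and 2 the coding transcripts had 557 and 101 expected counts between them, a 4.54-fold higher scaled level in replicate 1 (exact 95% limits 3.65 to 5.64). The transcripts of Cish that are not protein coding had 117 and 93.4, a 1.02-fold ratio (0.778 to 1.37). The second file also had a larger ratio for coding transcripts, with 664 and 106 estimated counts for coding transcripts (5.23-fold) and 105 and 112 for the others (0.792-fold). The non-coding counts in that file were all from Cish-202, a processed transcript of 4697 bases, which had 86.0 and 86.7 expected counts in the first file. The protein-coding share of Cish counts was 82.7% in replicate 1 and 51.9% in replicate 2. As a share of TPM it was 61.0% and 55.5% in the first file and 91.6% and 62.4% in the second. In the first file, coding transcripts were at 5.83 and 1.41 TPM and the others at 3.73 and 1.13 TPM. Most of that non-coding TPM was Cish-205, a transcript of 371 bases at 3.20 and 0.64 TPM, from 30.7 and 6.74 expected counts, which had 0 in the second file. By TPM in the first file, then, both kinds of transcript were lower in replicate 2. By counts, Socs2 coding transcripts were 2.73-fold higher in replicate 1 (2.25 to 3.33) and the others 1.56-fold higher (1.03 to 2.36). The split was looked at after the gene ratios were known. Within the coding group the files disagreed on the transcript of Cish, with 328 and 0 expected counts for Cish-201 in the first file and 645 and 95.4 in the second, so the transcripts are summed here.

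STAT dimers bind the palindrome TTCNNNGAA, so the promoters of the 10 genes were searched for it, as RefSeq gives them on GRCm38.p6 from 250 bases before to 50 after each start. Being its own reverse complement, the motif needs no separate search of the other strand. RefSeq promoters matched 9 of the 10 genes, 15 promoters in all, with Socs2 not among them. At least 1 match was found in 8.30% of all 32851 promoters and at least 2 in 0.457%. Cish held 2 matches, of which the first begins at the start RefSeq gives for this promoter, in the window chr9:107296654-107296683 on the plus strand. That start lies downstream of the Cish gene start given above. Socs3 held 1 match in the window chr11:117969502-117969530 on the minus strand, and 1 of the 3 Prlr promoters held 1 in the window chr15:10223786-10223814 on the plus strand. Each window with a match is printed below with the matches in capitals, 5′ to 3′ along the gene. Socs3 and Prlr held a match but were not called between the libraries, and Socs2, which was called, had no promoter to search. A link between matches and the ratios between libraries was not tested. No match was found in the windows of Ghr, Lepr, Jak2, Stat5a, Stat5b and Socs1. A match describes the letters in the window and is not evidence of binding.
Cish promoter: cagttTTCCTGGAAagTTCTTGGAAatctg
Socs3 promoter: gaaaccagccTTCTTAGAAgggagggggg
Prlr promoter: gcaaaatgagTTCTAGGAAtaagggatat

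The lists of pathway genes that follow place the 10 genes among their partners. Of 8 ligand genes, 6 had 0 counts in both libraries, among them Prl and Gh, which allows up to 0.0845 and 0.0994 CPM in replicates 1 and 2. Lep, leptin itself, which is made by fat cells, was at 4.71 and 1.87 TPM. Its ratio was 1.97-fold higher in replicate 1 (1.61 to 2.43, exact 95% limits), under the 2-fold threshold. Prl8a2, a prolactin family gene known from the decidua, was at 1.58 and 1.21 TPM, from 40 and 36 expected counts.

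In all, 6.87% of genes tested were called in either direction, so 0 or 1 call in so short a list is near that share. Of the 7 other Janus kinases and STATs tested, 0 were called in either direction, and their median log2 ratio was 0.16. The highest of them by mean TPM were Jak1, which serves the interleukin-6 family, at 41.5 and 27.1 TPM, and Stat3, which leptin activates, at 32.8 and 16.5 TPM. Of the other SOCS genes none of the 4 tested was called, and Socs5 led them at 22.9 and 22.6 TPM, well above Socs1, Socs2, Socs3 and Cish in both libraries. Of 17 phosphatases and adaptor regulators, 0 were called, and Ptpn11, the phosphatase SHP2, was the highest at 40.6 and 28.5 TPM. Of 17 other receptors of that list tested, 1 was called: Il15ra, the interleukin-15 binding chain, which itself has a sushi domain and works with class I chains, was higher in replicate 2, at 6.07 and 9.46 TPM. None of 8 genes of receptor shedding, turnover and gene neighbourhood was called. Among these, Leprot, which shares its promoter region with Lepr, was at 15.99 and 10.98 TPM, and Adam17, a protease that sheds the growth hormone receptor, at 13.9 and 11.1 TPM.

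Of 17 adaptors and kinases that act beside the STATs, Irs2 alone was called, against 6.87% of all genes tested. Irs2, an insulin receptor substrate that JAK2 also uses, was at 18.2 and 4.41 TPM, 3.06-fold higher in replicate 1 (2.86 to 3.28, exact 95% limits). The median of that list was -0.20.

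The list of known STAT5 or STAT3 target genes held more calls than the other pathway lists. This list was written with earlier results of these data known. Over all genes tested, 1.74% were called higher in replicate 1 and 5.13% higher in replicate 2, with a median log2 ratio of 0.01. Of the 18 targets tested, 6 were higher in replicate 1, 1 was higher in replicate 2 and 11 were not called, with a median log2 ratio of -0.61. The 6 were Cebpd (4.00-fold), Gadd45g (3.16-fold), Junb (2.62-fold), Egr1 (2.45-fold), Fos (2.36-fold) and Pim1 (2.17-fold). Pim1, a survival kinase, was the most abundant of these, at 49.0 and 18.0 TPM. Bcl6, a transcriptional repressor, was the 1 gene higher in replicate 2, at 7.43 and 12.9 TPM, a log2 ratio of 1.23. Igf1, the classical growth hormone target in liver, was at 15.7 and 7.07 TPM, 1.99-fold higher in replicate 1 and not called. By log2 ratio, 15 of the 18 were below 0 and 3 were above it: Bcl6, Myc (0.13) and Ccnd1 (0.01). Igf2 (-0.09) and Igfals (-0.17) were also near even. STAT activity was not measured, and its part in these ratios was not tested.

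Junb, Egr1 and Fos are also immediate early genes, a class that many stimuli induce. The list of early response genes, also written with earlier results known, was higher in replicate 1 for 9 of 13 tested, with 0 higher in replicate 2. The shares over all genes tested were 1.74% and 5.13%. That list had a median log2 ratio of -1.39 and summed to 714 and 146 TPM. Nr4a1, its most abundant gene in replicate 1, was at 350 and 4.09 TPM. Without the 3 shared genes, 3 of 15 STAT targets were higher in replicate 1, 1 was higher in replicate 2, and the median was -0.55. The early response genes thus differed between the libraries in the same direction as Cish, Socs2 and Irs2, and their part in those differences was not tested.

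**Figure D4:**
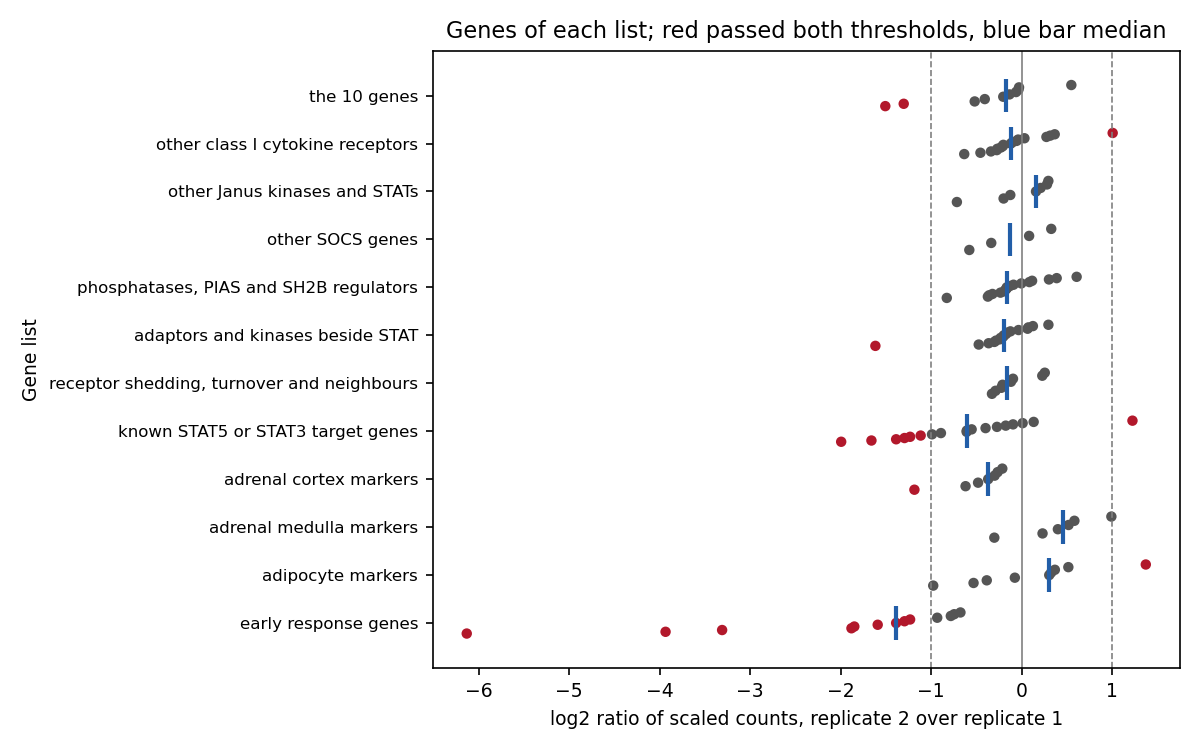
log2 ratio of TMM-scaled counts, replicate 2 over replicate 1, for each tested gene (points; red if called) of the 10 genes, the pathway lists and 4 marker lists, with the list median as a blue bar and dashed lines at 2-fold. The medians are -0.61 for known STAT targets and -1.39 for early response genes, against -0.17 for the 10 genes and 0.16 for the other Janus kinases and STATs.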

How the data were processed

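Total RNA from 2 adrenal libraries was quantified on mm10 with GENCODE M21, per the labels and file headers. The gene table and the first transcript file hold expected counts, which the authors made from reads aligned to transcripts, with the columns that RSEM writes. The authors deposited TPM scaled over every entry, tRNA and spike-ins among them. The authors also deposited the bounds of a credibility interval of each TPM, treated here as a score, at a level not given in the sources used here. In the second transcript file the authors deposited estimated counts and TPM with kallisto's columns. Program versions are likewise not stated there. The 26345 entries that name no gene took 0.843% and 1.5% of counts and were left out of the tests.

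Expected counts were rounded for the two-sided exact binomial test, with library sizes scaled by TMM (edgeR 4.0.16 in R 4.3.3; factors 1.02 and 0.982) over genes whose mean CPM was 1 or more, and 0.5 added for log2 ratios. A quasi-likelihood fit has no residual degrees of freedom with 1 library against 1. A call needed a 2-fold ratio and an adjusted p (Benjamini-Hochberg) below 0.05. Exact 95% limits and the 3-count floor describe counting error alone, because no molecular identifiers mark the reads and PCR copies are not independent. Long and short forms were set by coding length in the annotation. Scaling by DESeq2 1.42.0 size factors, total counts or spike-ins, other filters and thresholds, the second file and edgeR's exact test with a fixed coefficient were tried. The scripts (Python 3.11.15, numpy 2.4.6, pandas 2.3.3, scipy 1.17.1, matplotlib 3.10.9) were tested on simulated data. The members, lists and tests were chosen with earlier results of these data known. All 10 members are named, and of each list up to 4 genes with the highest mean TPM and up to 4 called genes with the largest ratio could be named. Osmr, Fos, Bcl6, Igf1, Myc, Igf2 and Igfals fell outside that rule and were named after their values were seen.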

Additional observations from a re-analysis of the deposited data

How the results depend on the processing

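Cish and Socs2 were the members called higher in replicate 1 under every alternative but 2: spike-in scaling called 6 members, and edgeR's exact test at a coefficient of 0.2 called 1, Cish, with Socs2 at a log2 ratio of -1.30. Over the 8 alternatives other than spike-in scaling, the log2 ratio ranged from -1.61 to -1.50 for Cish and from -1.40 to -1.29 for Socs2. The other filters and the 1.5-fold threshold kept the same counts and scaling, so they could not move these ratios. The same inputs went into edgeR's exact test. A lower fold threshold also cannot lose a called gene. No member was called higher in replicate 2 under the 9 alternatives. Spike-in scaling moves every gene alike, by the shift that took the median of all genes to -0.88, and so gave Stat5a a log2 ratio of -0.34. Jak2 had 0.0056 in the second file, beside -0.03 in the gene table; the cause was not tested.

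Of all genes, 257 were called higher in replicate 1 and 758 in replicate 2. Spike-in scaling gave 5279 and 237. The 1.5-fold threshold gave 760 and 1694, edgeR's exact test 107 and 301, and a minimum mean CPM of 5, which tests fewer genes, 164 and 182. With no filter, more genes are tested and 1736 were higher in replicate 2.

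The long-form share of counts, chosen after seeing the data, was 97.3% for Prlr and 65% for Ghr, against 91.2% and 33.1% of TPM, since counts are not divided by length. With 1 library left out, the share of TPM ranged from 89.0% to 93.4% for Prlr, 31.4% to 34.8% for Ghr and 2.10% to 13.5% for Lepr. Leaving out a library leaves no ratio to test. No paired analysis was possible because the libraries form 1 group. Values that rest on few counts, such as Prl8a2, Socs1, long Lepr and the short Prlr forms, are limited by depth.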
